A study of Homo sapiens with 12 samples.

Results

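The genes for inhibitors of cyclin-dependent kinases (CDKs), CDKN1A, CDKN1B, CDKN1C, CDKN2C and CDKN2D, were examined for H2A.Z and acetylated H2A.Z (H2A.Zac) in cells with and without the TRRAP-binding part of EP400. They were chosen by name, and every listed region that touched a gene or the 10 kb to either side of it was kept. This gave 75 of the 158028 regions in the 6 lists, at 5 of 20046 protein-coding genes. All libraries came from the human chronic myeloid leukemia line K562, with cells in which both copies of endogenous EP400 carry a degradation tag. The WT group expressed full-length EP400 from the AAVS1 site and the ΔTRRAP group expressed EP400 without its SANT and HD regions from the same site. Both groups were 1 clone each and both were treated with 500 nM dTAGV-1, the degrader of the tagged protein, for 24 h, so the cells of each group lack endogenous EP400. The 12 libraries are 2 replicates each of input, H2A.Z and H2A.Zac in each line.

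EP400 is the motor subunit of the TIP60 complex, which exchanges H2A for H2A.Z in nucleosomes and acetylates histones, and TRRAP is the subunit that transcription activators such as MYC, E2F factors and p53 contact. The proteins studied here hold back the G1 to S transition of the cell cycle. The CIP/KIP members p21 (CDKN1A), p27 (CDKN1B) and p57 (CDKN1C) bind cyclin-CDK complexes, foremost those of CDK2. The INK4 members p18 (CDKN2C) and p19 (CDKN2D) bind CDK4 and CDK6 and keep cyclin D away from them. CDKN1A is a classical target of p53, a factor that K562 cells are known to lack in working form, and CDKN1C is an imprinted gene expressed mostly from the maternal copy.

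Each region has a mark, a class and 1 value, the authors' log10 likelihood ratio between the lines. Lost regions were higher in WT and gained regions higher in ΔTRRAP, both with a ratio of at least 3, and unchanged regions lay under it. The ratio depends on depth as well as on the size of a change and is not a fold change. Replicates were merged before the lines were compared, so no spread between replicates and no test across the lines can be given for any region below. Library depth is unknown here. The lines are single clones, and the effect of the deletion cannot be told apart from other differences between those clones, copy number included.

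The 5 genes did not change in one direction. At CDKN2C and CDKN1B, H2A.Zac was gained over the transcription start site (TSS). At CDKN1C it was lost on both sides of the TSS and in the gene body, at CDKN1A a short gained stretch lay in the first intron, and at CDKN2D the promoter was unchanged with a lost shoulder upstream. H2A.Z changed in 7 of 26 regions (26.9%, beside 34% of all H2A.Z regions) and H2A.Zac in 23 of 49 (46.9%, beside 52.1% of all H2A.Zac regions), and CDKN1B held 5 of the 7 changed H2A.Z regions.

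Over the 5 genes, H2A.Z had 26 regions, of which 1 was lost, 6 were gained and 19 were unchanged. The lost share was 3.85%, beside 19.8% of all H2A.Z regions, and the gained share was 23.1%, beside 14.1%. H2A.Zac had 49 regions, with 9 lost, 14 gained and 26 unchanged. The lost share of 18.4% compares with 25.9% of all H2A.Zac regions and the gained share of 28.6% with 26.3%. Among changed regions 60.9% were gained in H2A.Zac, with a Wilson 95% interval of 40.8 to 77.8% that holds the 50.4% of the whole list. In H2A.Z 85.7% were gained (48.7 to 97.4%), against 41.6% in the whole list. These intervals cover counting error only, and the regions are not independent, since most of the gained H2A.Z regions belong to a single gene. The balance also rests on the 10-kb flanks and on the ratio cutoff of 3. With 50 kb to each side H2A.Z had 7 gained and 8 lost regions and H2A.Zac 20 gained and 25 lost, which turned the balance of each mark toward lost regions. With a ratio of at least 5, H2A.Zac had 8 gained and 9 lost regions. With 2 kb to each side gained regions were the more numerous, with 4 gained and 1 lost in H2A.Z and 10 gained and 5 lost in H2A.Zac. Neighboring classes also overlapped, so that 593 bp of the 27.5 kb covered by H2A.Z and 3707 bp of the 45.3 kb covered by H2A.Zac were listed in more than 1 class of the same mark.

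**Figure D1:**
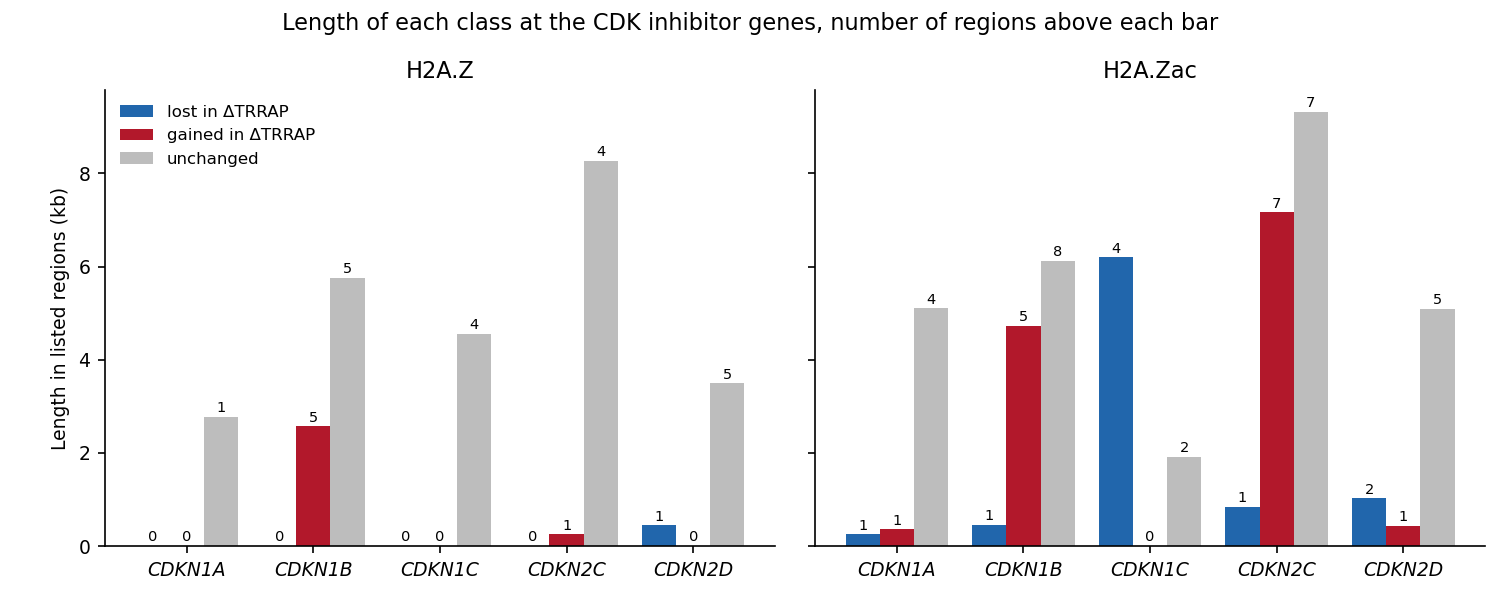
Length in kb (y axis) listed as lost, gained and unchanged at each gene (x axis) for H2A.Z (left) and H2A.Zac (right), with the number of regions above each bar. The gained H2A.Zac bar is longest at CDKN2C (7.17 kb) and CDKN1B (4.73 kb), and CDKN1C has the longest lost bar (6.20 kb) and no gained one.

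The class at the promoter was read in a window of 1 kb to each side of the canonical TSS, where a changed region outranks an unchanged one. H2A.Zac was gained in this window at CDKN1A, CDKN1B and CDKN2C and lost at CDKN1C and CDKN2D, while 32.2% of protein-coding genes were gained and 12.2% lost. H2A.Z was gained at CDKN1B and lost at CDKN2D, classes held by 13.5% and 6.19% of protein-coding genes, and was unchanged at the other genes. These shares and the joint ones that follow include genes with no region listed in the window. Such genes made up 36.1% in H2A.Zac and 37.8% in H2A.Z. All 5 inhibitor genes had a listed region of each mark there, and the shares are lower than among genes with a listed region. With both marks read together, CDKN1B was gained in each (9.79% of protein-coding genes), CDKN2D was lost in each (4.25%), CDKN1A and CDKN2C were gained in H2A.Zac with H2A.Z unchanged (20%), and CDKN1C was lost in H2A.Zac with H2A.Z unchanged (6.05%). How much of the window changed differed widely. Gained H2A.Zac filled 1714 of the 2001 bp at CDKN2C, 1649 bp at CDKN1B and 359 bp at CDKN1A, against a median of 780.0 bp over the 6456 protein-coding genes of that class. Lost H2A.Zac filled 1007 bp at CDKN1C and 100 bp at CDKN2D, against a median of 586 bp over 2450 genes. If only the region lying on the TSS base itself is read, H2A.Zac was gained at CDKN1B and CDKN2C and unchanged at the other 3 genes, and H2A.Z was unchanged at 4 genes and not listed at CDKN1B. The shares of protein-coding genes above belong to the 1-kb window. None is given for the TSS base, so it is not known how common these classes are under that rule.

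**Figure D2:**
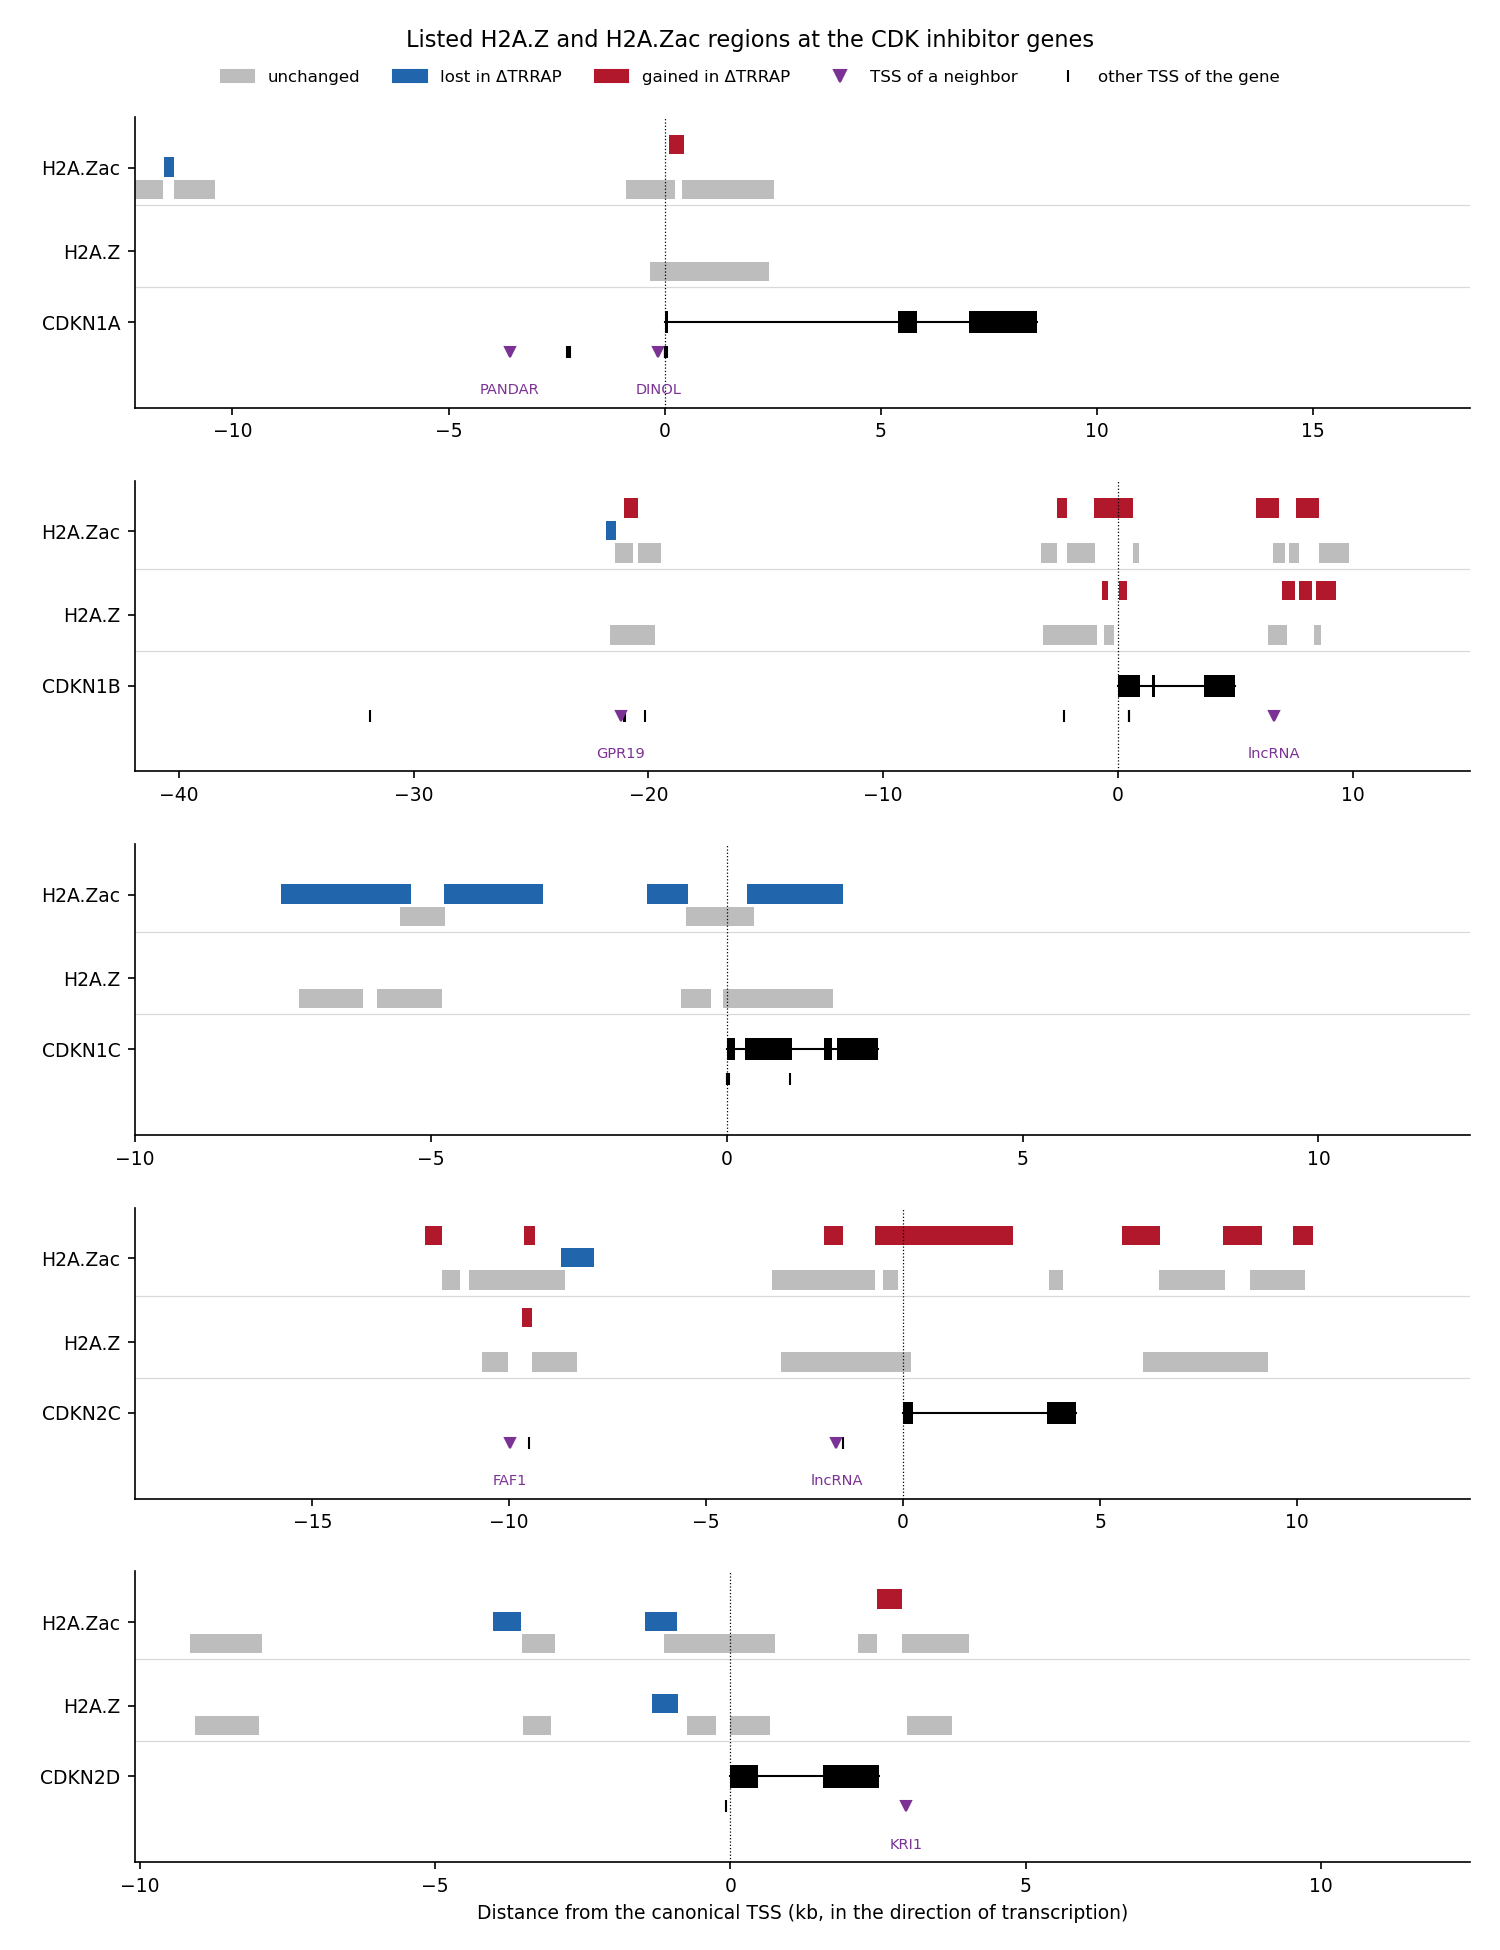
Regions at each gene by distance from the canonical TSS (x axis, kb, in the direction of transcription), 1 panel per gene, with H2A.Zac above H2A.Z, each with unchanged, lost and gained regions on separate levels, and canonical exons as black boxes. Gained H2A.Zac covers the TSS at CDKN1B and CDKN2C, lost H2A.Zac flanks it at CDKN1C, and unchanged H2A.Zac lies on it at CDKN1A, CDKN1C and CDKN2D.

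CDKN1A (ENSG00000124762, chr6:36676460-36687337 in hg38, plus strand) encodes p21, the inhibitor best known for the arrest that follows DNA damage. The bases before its TSS at 36678714 are shown because both marks covered all of them without change, from chr6:36678464-36678709, with the GC box GGGCGG in capitals.
CDKN1A: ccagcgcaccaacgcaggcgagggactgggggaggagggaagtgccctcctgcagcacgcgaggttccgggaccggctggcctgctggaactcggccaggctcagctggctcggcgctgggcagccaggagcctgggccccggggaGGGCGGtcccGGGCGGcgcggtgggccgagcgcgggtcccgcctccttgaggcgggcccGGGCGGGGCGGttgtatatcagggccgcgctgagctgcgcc
The sequence holds 4 GC boxes, from 104, 94, 45 and 40 bases before the TSS, the last pair sharing 1 base. H2A.Z at CDKN1A was a single unchanged region at chr6:36678361-36681134, which ran from 353 bp before the TSS to 2420 bp after it, in intron 1. Its width of 2774 bp was above that of 99.5% of unchanged H2A.Z regions and its likelihood ratio was 0.729. The H2A.Zac region on the TSS, chr6:36677822-36678941, was also unchanged (1120 bp, likelihood ratio 0.899), and so was the one that followed in intron 1 (2134 bp, 0.865). Between them the gained region chr6:36678808-36679166 lay 94 to 452 bp past the TSS, with a likelihood ratio of 5.02 that exceeded 23.6% of gained H2A.Zac regions. It lay wholly on the unchanged H2A.Z region and partly on both unchanged H2A.Zac neighbors. Gained H2A.Zac thus made up 0.359 kb of the 5.51 kb of H2A.Zac at the gene. The start of the lncRNA DINOL lies 155 bp upstream on the other strand, and the marks of both promoters cannot be told apart. A lost H2A.Zac region of 254 bp (10.3) lay 11.3 to 11.6 kb upstream, between a pair of unchanged regions and without H2A.Z. At least 1 gained H2A.Zac region was found at 59.4% of protein-coding genes, and at least 1 lost one at 49.8%.

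CDKN1B (ENSG00000111276, chr12:12685498-12722369, plus strand) encodes p27, which accumulates in resting cells and is removed through SKP2 when cells enter S phase. Its gained H2A.Zac region covered all of the upstream bases shown here, chr12:12717118-12717367, again with the GC box in capitals.
CDKN1B: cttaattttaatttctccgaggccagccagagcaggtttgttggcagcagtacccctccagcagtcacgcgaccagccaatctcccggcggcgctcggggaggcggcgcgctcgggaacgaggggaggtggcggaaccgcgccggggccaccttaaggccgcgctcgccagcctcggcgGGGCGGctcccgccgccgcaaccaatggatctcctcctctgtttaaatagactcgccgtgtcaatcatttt
The 1 GC box starts 71 bases before the TSS. Gained H2A.Zac extended over 1673 bp at chr12:12716344-12718016, from 1024 bp before the TSS to 648 bp after it into coding exon 1. Its likelihood ratio of 8.85 was above 67.2% of gained H2A.Zac regions. H2A.Z was split at this promoter. A gained region of 267 bp (likelihood ratio 3.45) lay 677 to 411 bp upstream, an unchanged one of 438 bp (1.51) lay 585 to 148 bp upstream, and a gained one of 349 bp (3.52) lay 56 to 404 bp downstream in the untranslated part of exon 1. No H2A.Z region covered the TSS itself. Both gained H2A.Z regions lay wholly on the gained H2A.Zac region and were just past the cutoff of 3, higher than only 2.11% and 3.05% of gained H2A.Z regions.

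A further group of gained regions at CDKN1B lay behind the gene, 5.89 to 9.31 kb past the TSS. This stretch holds the start of a lncRNA (ENSG00000256658) at 12724011 and the first annotated start of APOLD1, a gene of endothelial signaling, at 12725917. H2A.Zac was gained in 982 bp (likelihood ratio 7.61) and 1016 bp (6.02). H2A.Z was gained in 563 bp (5.02), 532 bp (6.50) and 859 bp (4.88). The 532-bp H2A.Z region lay wholly on gained H2A.Zac, whereas the 859-bp one lay for 84.2% on unchanged H2A.Zac. Upstream, a gained H2A.Zac region of 439 bp (4.33) interrupted unchanged H2A.Zac 2157 to 2595 bp before the TSS. About 21 kb upstream, near the start of GPR19, H2A.Zac had a lost region of 456 bp (6.90) and a gained one of 615 bp (4.08). Unchanged H2A.Z in that stretch lay under 56.4% of the lost region and 100% of the gained one. Annotated CDKN1B transcripts also begin there, and without that stretch (10 kb around the canonical transcript alone) CDKN1B had 19 of its 24 regions, with 5 gained in H2A.Z, 4 gained in H2A.Zac and none lost. At least 5 gained H2A.Z regions were found at 0.723% of protein-coding genes and at least 5 gained H2A.Zac regions at 4.68%, without adjustment for the length of the locus, which was longest for CDKN1B (56.9 kb). Unchanged regions were numerous here too, with at least 8 in H2A.Zac at 3.65% of protein-coding genes and at least 5 in H2A.Z at 8.89%. The count of gained H2A.Z regions at CDKN1B also depends on how neighboring regions are split, as it was 2 rather than 5 with regions within 1 kb merged, 2 at a ratio of at least 5 and 0 at a ratio of at least 10.

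CDKN1C (ENSG00000129757, chr11:2883213-2885775, minus strand) encodes p57, the CIP/KIP member of the imprinted domain at the end of chromosome 11. No sequence is shown for it. H2A.Zac covered 7.75 kb at the locus, of which 6.20 kb was lost in 4 regions and none was gained. The lost region in the gene, chr11:2883812-2885436, was 1625 bp wide, had a likelihood ratio of 12.6 and ran from coding exon 2 to exon 4. A second lost region of 693 bp (5.68) lay 1348 to 656 bp upstream of the TSS. Another of 1675 bp at chr11:2888873-2890547 had the highest ratio of the lost regions at the 5 genes (13.9) and lay 4.77 to 3.10 kb upstream without any H2A.Z. The last, 2209 bp wide (9.35), lay 7.54 to 5.33 kb upstream. Both the 1675-bp and the 2209-bp region lay inside the lncRNA gene SLC22A18AS (chr11:2887344-2903813, minus strand). They are given under CDKN1C by position only. Unchanged H2A.Zac remained listed on the TSS (chr11:2885314-2886463, 1150 bp, likelihood ratio 1.06) and in 759 bp (1.19) between the last pair of lost regions.

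The 4 H2A.Z regions of CDKN1C were all unchanged, with likelihood ratios of 0.534, 0.347, 0.758 and 0.791. The one on the TSS, chr11:2883980-2885835, was 1856 bp wide, and 78.5% of it lay under lost H2A.Zac. The farthest upstream was covered by lost H2A.Zac over 100% of its length and the other pair over 52.9% and 23.7%. Of the 4 lost H2A.Zac regions, the one in the gene lay on unchanged H2A.Z over 89.7% of its length and the farthest upstream over 75.3%, while the 693-bp one did so over 17.7% and the 1675-bp one over 0%. At least 4 lost H2A.Zac regions were found at 7.64% of protein-coding genes. Gained minus lost H2A.Zac regions at CDKN1C went from -4 to -2 with regions within 1 kb merged. The difference was also -2 at a ratio of at least 10, and it was -12 with 50 kb to each side. The 4 lost H2A.Zac regions were rich in G and C, with 57.7 to 76.9% GC, where the whole lost list has a median of 49.6%. The unchanged H2A.Zac regions of the locus had 66.4 and 75.0% GC, and its unchanged H2A.Z regions 64.8 to 76.3%. High GC was thus not particular to the lost regions.

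CDKN2C (ENSG00000123080, chr1:50960745-50974634, plus strand) encodes p18, an INK4 inhibitor that acts in the terminal differentiation of plasma cells. Gained H2A.Zac and unchanged H2A.Z both covered the whole stretch shown here, chr1:50969995-50970244, with a GC box and the E box CACGTG, the recognition sequence of MYC and related factors, in capitals.
CDKN2C: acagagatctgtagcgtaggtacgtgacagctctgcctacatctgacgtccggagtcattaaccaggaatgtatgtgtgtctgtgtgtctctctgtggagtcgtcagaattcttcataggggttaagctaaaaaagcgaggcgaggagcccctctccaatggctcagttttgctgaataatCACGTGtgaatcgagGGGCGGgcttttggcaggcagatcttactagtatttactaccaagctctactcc
The E box starts 69 and the GC box 54 bases before the TSS. The gained H2A.Zac region, chr1:50969532-50973031, was 3500 bp wide, the widest listed at any of the 5 genes, and ran from 713 bp before the TSS to 2786 bp after it into intron 1. It was wider than 99.0% of gained H2A.Zac regions, and its likelihood ratio of 13.7 was above 84.6% of them. Within it an unchanged region of 369 bp was listed as well, with a likelihood ratio of 2.42, close to the cutoff. H2A.Z on the TSS was unchanged over 3303 bp (chr1:50967148-50970450, likelihood ratio 0.790) but ended 205 bp past the TSS. Only 26.3% of the gained H2A.Zac region lay on H2A.Z, so most of its length, inside intron 1, had no listed H2A.Z.

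Another 6 gained H2A.Zac regions at CDKN2C were shorter and nearer the cutoff, 280.0 to 1001 bp wide, with likelihood ratios of 4.20 to 5.39. Those of 955 bp (5.39), 1001 bp (5.27) and 504 bp (4.42) lay behind the gene, the first of them partly and the next wholly on a broad unchanged H2A.Z region of 3159 bp. One of 495 bp (4.26) lay at the start of a lncRNA (ENSG00000290102) 1.69 kb upstream. One of 280.0 bp (4.20) lay 9.34 to 9.62 kb upstream, over the start of the longest CDKN2C transcript and close to that of FAF1. There H2A.Z was gained too, in 252 bp with a likelihood ratio of 8.66, the highest of the changed H2A.Z regions at the 5 genes, and H2A.Zac was lost in 836 bp farther into this transcript (6.85). In all, 7.17 kb of H2A.Zac was gained at CDKN2C and 0.836 kb lost. At least 7 gained H2A.Zac regions were found at 1.57% of protein-coding genes, and at least 7 unchanged ones, the number listed here, at 5.42%. These counts also depend on the cutoff and on how neighboring regions are split. Gained minus lost H2A.Zac regions at CDKN2C went from 6 to 4 with regions within 1 kb merged. The difference was 2 at a ratio of at least 5 and 1 at a ratio of at least 10.

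CDKN2D (ENSG00000129355, chr19:10566460-10569059, minus strand) encodes p19, the INK4 inhibitor whose level normally peaks in S phase. Unchanged H2A.Zac covered all of the 170 upstream bases shown here, chr19:10569060-10569229 on the minus strand, while H2A.Z covered 8 of them. The 80 bases nearest the TSS belong to an exon of another transcript of the gene and are left out.
CDKN2D: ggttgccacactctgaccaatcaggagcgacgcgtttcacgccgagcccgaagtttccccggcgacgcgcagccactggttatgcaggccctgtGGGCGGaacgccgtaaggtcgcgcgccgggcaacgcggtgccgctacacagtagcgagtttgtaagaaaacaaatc
The GC box in capitals starts 156 bases before the TSS, and another starts 44 bases before it. H2A.Zac on the TSS was unchanged over 1866 bp (chr19:10568233-10570098, likelihood ratio 0.725). The H2A.Z region on it, 681 bp wide, had a likelihood ratio of 0.0631, the lowest at the 5 genes. The lost class of this promoter came from its upstream edge. H2A.Z was lost in 447 bp at chr19:10569865-10570311 (likelihood ratio 5.52) and H2A.Zac in 543 bp at chr19:10569880-10570422 (5.09), about 0.9 to 1.4 kb before the TSS, and 96.6% of the former lay on the latter. This was the 1 lost H2A.Z region found at the 5 genes and the one place where both marks were lost together. Further upstream, 478 bp of H2A.Zac (7.38) was lost without H2A.Z, partly over the 3′ end of the neighboring protein-coding gene AP1M2. At least 1 lost H2A.Z region was found at 27.2% of protein-coding genes and at least 2 lost H2A.Zac regions at 26.2%. At the 3′ end of CDKN2D, 435 bp of H2A.Zac at chr19:10566070-10566504 was gained with a likelihood ratio of 17.9, the highest of all 75 regions and above 90.3% of gained H2A.Zac regions. This stretch had no H2A.Z and ended 60 bp before the canonical start of KRI1, a gene of ribosome assembly. The H2A.Zac region that lay on that start was unchanged, and the gained stretch is given under CDKN2D by position only.

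**Figure D3:**
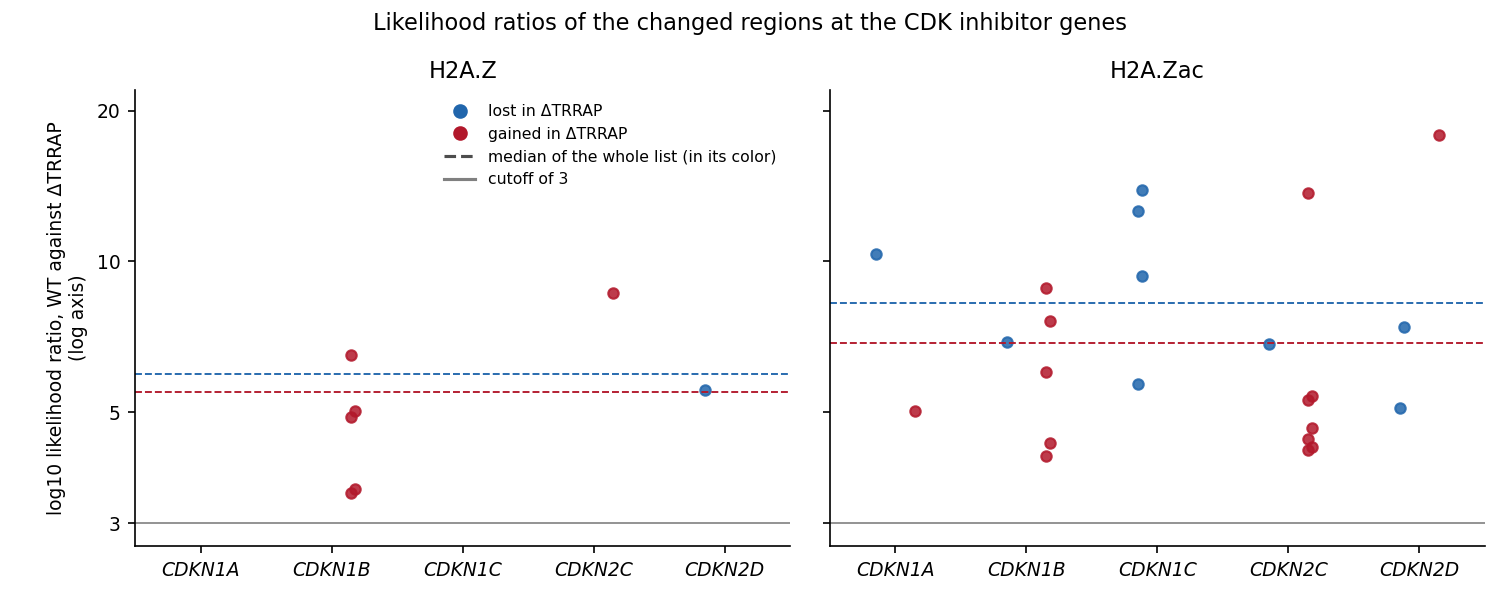
Log10 likelihood ratio (y axis, log scale) of every changed H2A.Z (left) and H2A.Zac (right) region at each gene (x axis), 1 point per region, with the cutoff of 3 and the median of each whole list as lines. The gained H2A.Zac points above the list's median of 6.87 belong to CDKN1B (8.85 and 7.61), CDKN2C (13.7) and CDKN2D (17.9), and 3 of the 4 lost points of CDKN1C lie above the lost median of 8.27.

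The likelihood ratios were set beside those of the whole lists. The median over the 14 gained H2A.Zac regions was 5.15 (range 4.08 to 17.9), under the 6.87 of all gained regions, and over the 9 lost ones it was 7.38 (5.09 to 13.9), under the 8.27 of all lost regions. For the 6 gained H2A.Z regions it was 4.95 (3.45 to 8.66), beside 5.48. The gained H2A.Z regions had a median of 64.0% GC, beside 47.1% in the whole list, whereas the gained H2A.Zac regions had 45.6%, beside 48.6%. The unchanged H2A.Z regions at the 5 genes had 64.3%, beside 52.2%, so high GC was not particular to the gained ones. CDKN1B held 5 of the 6 gained H2A.Z regions, and the one at CDKN2C had 43.3% GC.

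The marks were mostly found together. All 26 H2A.Z regions lay on H2A.Zac over at least 25% of their length, beside 82.8% of H2A.Z regions overall. Of the 49 H2A.Zac regions 36 (73.5%) lay on H2A.Z, beside 60.5% overall. Among the changed ones, 11 of 14 gained H2A.Zac regions lay on H2A.Z, beside 57.1% of all gained regions, and 5 of 9 lost ones (55.6%), beside 55.0%. H2A.Z that changed the same way lay under 3 of the 14 gained H2A.Zac regions, beside 18.7% of all gained regions, and under 1 of the 9 lost ones, beside 28.6%.

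The upstream sequences had few of the searched motifs in common. The GC box GGGCGG, read on both strands, was found in the 250 bases before the TSS of all 4 genes with an entry and in 42.6% of 35116 RefSeq promoters (GRCh38.p14). The E box CACGTG was found at CDKN2C and in 6.34% of promoters. The E2F sequences TTTCCCGC, TTTCGCGC, TTTGCCGC and TTTGGCGC (2.79% of promoters), the TATA box TATAAA (10.7%) and the cyclic AMP response element TGACGTCA (1.65%) were not found in any of the 4. GC content was 76.4% at CDKN1A, 64.4% at CDKN1B, 48.8% at CDKN2C and 67.6% at CDKN2D, beside a median of 58% over all promoters. The promoters with gained H2A.Zac on the TSS, CDKN1B and CDKN2C, were the 2 with the lower GC content of the 4. CDKN1B nevertheless lay above the median of all promoters and close to CDKN2D. A link between GC content and class was not tested.

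The surroundings of each gene were examined to see whether its direction was that of its neighborhood. In the 5 Mb around CDKN1B, without the locus itself, 61.5% of 91 changed H2A.Zac regions were gained (Wilson 95% interval 51.3 to 70.9%), beside 50.4% in the genome. Nearer the gene the share was lower, with 42.1% of 38 (27.9 to 57.8%) in the 2 Mb around it, the locus included. Around CDKN1A it was 56.5% of 207 (49.7 to 63.1%), around CDKN2D 51.1% of 233 (44.7 to 57.4%), around CDKN1C 46.5% of 198 (39.7 to 53.4%) and around CDKN2C 46.4% of 69 (35.1 to 58.0%), and each of these intervals holds the genome's share. In the 2-Mb windows, with the locus included, the share was 60.8% of 120 around CDKN1A (51.9 to 69.1%) and 34.4% of 96 around CDKN1C (25.6 to 44.3%), and those intervals do not hold it. At the CDKN2C locus 7 of 8 changed H2A.Zac regions were gained, and 32 of 69 in the 5 Mb around it, whereas the 2-Mb window with the locus included had 62.9% of 35 (46.3 to 76.8%). For H2A.Z the shares ran from 32.8% of 58 around CDKN1C to 54.5% of 33 around CDKN1B, and all 5 intervals hold the genome's 41.6%. The intervals of all these windows cover counting error only, and neighboring regions are not independent, so they are no test of a neighborhood. Copy number differences between the clones were not tested.

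**Figure D4:**
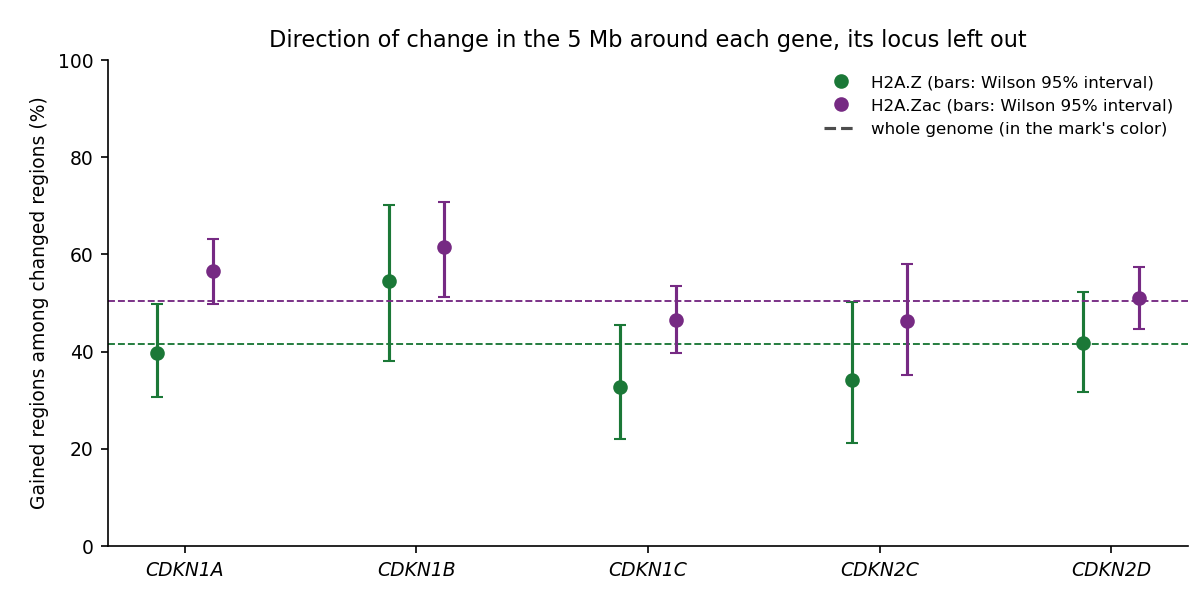
Percent of changed regions that were gained (y axis) in the 5 Mb around each gene (x axis) with the gene's own locus left out, with Wilson 95% intervals as bars and the whole genome as dashed lines. The H2A.Zac interval of CDKN1B (51.3 to 70.9%) lies above the genome's 50.4%, and the other 9 intervals hold the value of the genome.

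The other genes of the G1 to S transition were read in the same way at their TSSs to set these values beside their pathway. Of 25 such genes, H2A.Zac was gained at 8 (32%, beside 32.2% of protein-coding genes), lost at 6 (24%, beside 12.2%), both lost and gained at 2 (8%, beside 4.42%), unchanged at 5 (20%, beside 15.1%) and not listed at 4 (16%, beside 36.1%). H2A.Z was gained at 6 (24%, beside 13.5%), lost at 3 (12%, beside 6.19%), unchanged at 12 (48%, beside 42.1%) and not listed at 4 (16%, beside 37.8%). Both marks were lost at CCND1, which encodes the cyclin D1 that INK4 inhibitors act against. Its TSS lay in a lost H2A.Zac region of 3386 bp with a likelihood ratio of 38.3 and a lost H2A.Z region of 1980 bp with 11.2, both above any ratio at the inhibitor genes in the same mark. Both marks were gained at CDK2, the kinase held by CIP/KIP inhibitors, in short stretches (H2A.Zac 3.16 and 5.29, H2A.Z 4.76), and at E2F3, which drives S-phase genes (H2A.Zac 3.76, H2A.Z 4.65). At both genes the H2A.Zac region on the TSS itself was unchanged (878 bp, 1.61, at CDK2 and 1381 bp, 1.54, at E2F3). CDKN2A and CDKN2B, the remaining INK4 genes, had 0 regions of either mark in their bodies and the 10 kb to each side. K562 cells are known to lack this part of chromosome 9, and whether DNA was present in these clones was not analysed here.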

How the data were processed

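ChIP-seq was analysed from 6 region lists of K562 cells, a lost, a gained and an unchanged list for each mark. The authors aligned reads to hg38 with Bowtie2 2.4.5, called peaks with MACS2 2.2.7.1, merged the replicates and compared WT with ΔTRRAP by bdgdiff. They kept regions with 25% of their length in peaks at an IDR of 0.05. The score column deposited by the authors is the log10 likelihood ratio of that comparison, and it was used as given. The lists hold neither counts nor values per replicate, so depth is unknown, no precision can be given for a region and no test was made.

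Genes, TSSs and exons came from GENCODE 44, and promoter sequences from RefSeq, with entries for 4 of the 5 genes and 6 of 6 windows equal to hg38. The locus was the gene with 10 kb to each side, overlap was 25%, TSS windows reached 1 kb to each side, and neighborhoods were 5 Mb wide. Shares have Wilson 95% intervals (scipy 1.17.1). Python 3.11.15, numpy 2.4.6, matplotlib 3.10.9 and bedtools 2.31.1 were used. In tests on simulated data, 500 of 500 planted TSS classes were recovered and 0 of 2000 covered lengths differed from bedtools. All 5 members were named, and of 25 other G1 to S genes those with both marks changed alike at the TSS. Members, gene lists and motifs were chosen with earlier results of these data known. Alternatives were other flanks, merging within 1 kb, wider regions, higher ratio cutoffs, other TSS rules and 2-Mb windows. Input libraries, signal tracks and gene expression were not analysed here.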

Additional observations from a re-analysis of the deposited data

How the results depend on the processing

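Of 146 values recomputed under the alternatives, 107 stayed within the limits set for them, 38 moved beyond and 1 changed sign. Those limits let small counts move far. Gained minus lost H2A.Zac regions at CDKN1C counted as within them at -12 rather than -4, with flanks of 50 kb. At CDKN2C they did so at 1 rather than 6, with a ratio of at least 10. With flanks of 50 kb the 5 genes had 45 H2A.Z and 85 H2A.Zac regions, with 8 lost and 7 gained in H2A.Z and 25 lost and 20 gained in H2A.Zac, so lost regions became the more numerous in both marks, and with 2 kb there were 32 H2A.Zac regions, 5 lost and 10 gained. Merging of regions within 1 kb left 3 gained H2A.Z regions. Keeping regions of at least 500 bp left 0 lost and 3 gained in H2A.Z and 8 gained in H2A.Zac. A ratio of at least 5 left 3 gained in H2A.Z and 8 gained beside 9 lost in H2A.Zac. A ratio of at least 10 left 0 lost and 0 gained in H2A.Z and 3 lost and 2 gained in H2A.Zac, and turned the gained minus lost H2A.Zac regions at CDKN2D from -1 to 1. When only a region on the TSS was read, 0 genes were lost and 0 gained and 1 was not listed in H2A.Z, and 0 were lost and 3 unchanged in H2A.Zac. With any annotated TSS, 2 genes were gained in H2A.Z, and 1 was gained and 2 were both lost and gained in H2A.Zac. Shares of all protein-coding genes are given for the 1-kb window of the canonical TSS only, so the counts under these other TSS rules have none beside them. With 2-Mb windows that include the locus, the gained share of H2A.Zac was 42.1% at CDKN1B, 34.4% at CDKN1C and 62.9% at CDKN2C, and the interval moved off the genome's share at CDKN1A and CDKN1C and onto it at CDKN1B. The causes were not tested. No paired analysis was possible because the lists hold merged replicates, and for the same reason no replicate could be left out.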
